A study of Homo sapiens with 6 samples.

Results

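The 10 genes described here encode the enzymes that make serine from a glycolytic intermediate (PHGDH, PSAT1 and PSPH), that pass its carbon through the mitochondrial and cytosolic folate pathways (SHMT2, MTHFD2 and MTHFD1L in mitochondria, SHMT1 and MTHFD1 in the cytosol) and that join serine with homocysteine to form cysteine (CBS and CTH). They were chosen by symbol from the 58884 genes of the series, and each symbol had 1 row. RNA-seq compared KYSE70, a human cell line established from esophageal squamous cell carcinoma (ESCC) with a mutant NFE2L2 gene, with NRF2null-KYSE70, its derivative in which NFE2L2, the gene for the transcription factor NRF2, was cut with CRISPR-Cas9 in exon 2. Cells of both lines were untreated and grown in RPMI1640 with serum, with 3 libraries per line. NRF2null-KYSE70 is 1 clone grown from a single cell, so each difference below is one between this clone and its parental line, and an effect of NRF2 cannot be told apart from one of cloning. The study's account of the clone describes a frameshift and notes that the guide misses a transcript variant of NFE2L2. On Western blots of the clone the study saw a faint, smaller NRF2 band, and it states that NRF2 was not fully lost. RNA levels do not show how much protein was made. Nothing in the labels states that the replicates were separate cultures, so p-values measure the spread between libraries, which may be technical.

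Serine is both an amino acid of proteins and the main source of one-carbon units. PHGDH oxidizes 3-phosphoglycerate, PSAT1 transfers an amino group from glutamate, and PSPH removes the phosphate. SHMT2 in mitochondria and SHMT1 in the cytosol split serine into glycine and a one-carbon unit carried on tetrahydrofolate, MTHFD2 and MTHFD1L turn that unit into formate, and MTHFD1 takes formate up again in the cytosol for purine and thymidylate synthesis. Several of these genes are known targets of ATF4, the transcription factor of the amino acid response, and in lung cancer NRF2 is known to raise serine synthesis genes by way of ATF4.

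The libraries held 52072801 to 63975313 reads in genes, of which 1.85% to 2.29% were mitochondrial. Levels are given as normalized counts, that is reads divided by 1 size factor per library. The edited gene, NFE2L2, was at 9839, 9906 and 10040 normalized counts in KYSE70 and at 5803, 6041 and 6434 in NRF2null-KYSE70, which is 61.4% of the parental mean and in the direction of the labels. The defining squamous markers KRT5, TP63 and DSG3 were present in every library, whereas KRT14 was low, with 34.5 to 66.4 normalized counts in KYSE70 and 112 to 217 in NRF2null-KYSE70. The summed level of the 10 squamous markers ran from 349931 to 354653 in KYSE70 and from 255473 to 263602 in NRF2null-KYSE70. KRT5 made up most of that difference, at 207890 to 213140 and 121672 to 127862 normalized counts. TP63 was also lower, at 25297 to 26896 in KYSE70 and 13628 to 14222 in NRF2null-KYSE70. DSG3 ran from 14113 to 15046 and from 8212 to 9637. KRT15, PERP and SFN were lower in every NRF2null-KYSE70 library too, while KRT6A, KRT14, KRT17 and EPCAM were higher in every NRF2null-KYSE70 library. The endothelial markers PECAM1 and CDH5 had at most 1.14 normalized counts in any library. The fibroblast markers DCN and LUM had at most 5.71, but COL1A1 was present, and the summed level of the 4 fibroblast markers was 1384 to 1618 in KYSE70 and 471 to 622 in NRF2null-KYSE70. PTPRC, an immune marker, had up to 1.05 normalized counts in KYSE70 and 40.2 to 47.9 in NRF2null-KYSE70, while CD3E and CD68 stayed at 3.16 or below. The part of these marker differences in the results was not tested. In bulk RNA, fewer cells that express a gene and less RNA per cell cannot be told apart.

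At a limma adjusted p under 0.05, 7 of the 10 genes rose in NRF2null-KYSE70 and 0 fell, whereas 57.6% of all 15994 tested genes passed, 29.3% as higher and 28.3% as lower. DESeq2 and edgeR on the recovered reads called the same 7 members at that limit, where each passed 57.5% of all tested genes. With a fold limit added (log2 values of 1 or more in size), 5 members were called, all higher (PHGDH, PSAT1, MTHFD2, CBS and CTH). In that call 14.7% of all tested genes were included, 7.23% as higher and 7.43% as lower, with 14.6% for DESeq2 and 14.7% for edgeR. Libraries of the lines did not overlap for 7 members that were higher and 2 that were lower, where the shares over all tested genes were 32.1% and 31.3%. The median log2 fold change was 1.02 for the 10 genes and -0.01 for all tested genes. By role, all 3 genes of serine synthesis, both mitochondrial genes other than SHMT2 and both genes of transsulfuration rose, and SHMT2, SHMT1 and MTHFD1 did not pass the test. All 10 genes passed the filter of a mean normalized count of at least 10.

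**Figure D1:**
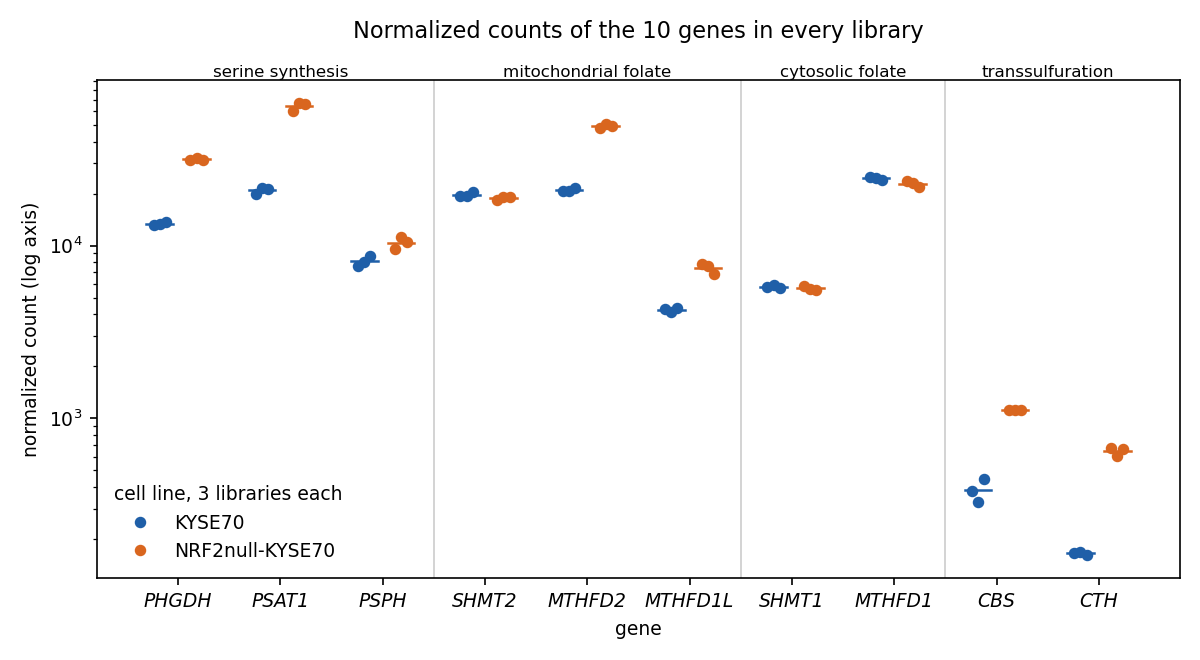
Normalized counts (vertical log axis) of the 10 genes in each of the 3 KYSE70 (blue) and 3 NRF2null-KYSE70 (orange) libraries; points are libraries and short lines are means, with genes grouped by role. The orange points lie above the blue ones for 7 genes, among them PSAT1 at 60331 to 67285 against 19878 to 21519, and close to them for SHMT2, SHMT1 and MTHFD1.

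The serine synthesis genes were compared first. PHGDH (ENSG00000092621; hg38 chromosome 1, 119648411 to 119744218), the enzyme of the first step, had 13239, 13281 and 13639 normalized counts in KYSE70 and 31273, 32336 and 31377 in NRF2null-KYSE70. The lines did not overlap, as was the case for 63.4% of all tested genes, and the mean rose 2.37-fold (log2 fold change 1.24, SE 0.042, limma adjusted p = 1.37e-10). PSAT1 (ENSG00000135069; chromosome 9, 78297125 to 78330093) had 19878, 21519 and 21393 normalized counts in KYSE70 and 60331, 67285 and 65725 in NRF2null-KYSE70. Every NRF2null-KYSE70 library held more than every KYSE70 library, a 3.08-fold rise of the mean (log2 fold change 1.62, SE 0.054, limma adjusted p = 1.03e-10). PSPH (ENSG00000146733; chromosome 7, 56011051 to 56051604), the last step, had 7625, 8081 and 8663 normalized counts in KYSE70 and 9500, 11209 and 10466 in NRF2null-KYSE70. Its libraries did not overlap either, but the rise was only 1.28-fold (log2 fold change 0.35, SE 0.065, limma adjusted p = 0.000463). Its transcribed pseudogene PSPHP1 had 559 to 758 normalized counts, with the lines overlapping, and reads of near-identical sequence may have been split between the pair.

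The 95% intervals of the log2 fold change were 1.15 to 1.33 for PHGDH and 0.21 to 0.50 for PSPH, and that of PSAT1 lay wholly above both and below 1.74. The log2 ratio of PHGDH to PSAT1 within a library was lower in NRF2null-KYSE70, by -0.38, with no overlap between the lines (exact permutation p = 0.1, two-sided, the smallest that 3 libraries against 3 can give, so that this design cannot pass 0.05). Per kilobase of the canonical transcript, PSAT1 was the most abundant of the 10 genes in NRF2null-KYSE70, at 29214 ± 1654 normalized counts per kilobase (SD, n = 3), followed by PHGDH at 16968 ± 314 and MTHFD2 at 11171 ± 292. In KYSE70 the corresponding levels per kilobase were 9488 ± 414, 7174 ± 118 and 4762 ± 87.2 (SD, n = 3), and PSAT1 overlapped with SHMT2, at 9139 ± 280. In KYSE70, SHMT2 and MTHFD1 stood above PHGDH and MTHFD2 on this scale, and in NRF2null-KYSE70 below them. PSAT1 was also first in both lines when the merged length of all annotated exons was used, but the order of the other genes then changed.

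The sequence in front of PSAT1 and CTH is shown because they rose most among the serine synthesis and the transsulfuration genes, respectively. Whether these genes are regulated together was not tested. The sequence is given up to the first base that GENCODE annotates as transcribed (GRCh38.p14, RefSeq, plus strand, 5′ to 3′). The PSAT1 stretch is chr9:78296875-78297124 and the CTH stretch chr1:70411018-70411217.
PSAT1: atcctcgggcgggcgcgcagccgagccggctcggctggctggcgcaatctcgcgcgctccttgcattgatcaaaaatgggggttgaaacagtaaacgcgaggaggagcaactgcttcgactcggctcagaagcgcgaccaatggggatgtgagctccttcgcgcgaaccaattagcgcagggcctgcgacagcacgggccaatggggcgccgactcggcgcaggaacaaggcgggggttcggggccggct
CTH: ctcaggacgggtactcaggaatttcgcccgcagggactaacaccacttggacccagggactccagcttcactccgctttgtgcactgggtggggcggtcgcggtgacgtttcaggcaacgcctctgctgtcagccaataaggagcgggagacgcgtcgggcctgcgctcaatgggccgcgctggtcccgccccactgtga
Both stretches are GC-rich, with 65.6% and 64.5% G and C. No capitals are used because neither motif searched below occurs in them.

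In the mitochondrial folate pathway, MTHFD2 and MTHFD1L rose while SHMT2 did not. MTHFD2 (ENSG00000065911; chromosome 2, 74186172 to 74217565), a dehydrogenase and cyclohydrolase that is low in most adult tissues and high in many tumors, had 20721, 20768 and 21408 normalized counts in KYSE70 and 47941, 50506 and 49116 in NRF2null-KYSE70. The mean rose 2.35-fold, with no overlap (log2 fold change 1.23, SE 0.044, limma adjusted p = 2.11e-10). MTHFD1L (ENSG00000120254; chromosome 6, 150865679 to 151101887), which releases formate, had 4303, 4106 and 4331 normalized counts in KYSE70 and 7872, 7633 and 6884 in NRF2null-KYSE70. This was a 1.76-fold rise without overlap (log2 fold change 0.81, SE 0.057, limma adjusted p = 9.67e-08). SHMT2 (ENSG00000182199; chromosome 12, 57229573 to 57234935) had 19477, 19264 and 20399 normalized counts in KYSE70 and 18402, 19146 and 19095 in NRF2null-KYSE70. Each library of NRF2null-KYSE70 lay below those of KYSE70, by little, and the test was not passed (log2 fold change -0.06, 95% interval -0.16 to 0.03, limma adjusted p = 0.255).

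SHMT2 lies on 12q. Protein-coding genes of that arm had a median log2 fold change of -0.38, and the median of its 40 nearest such genes was -0.56. Relative to the arm, the SHMT2 value was 0.32 (limma adjusted p = 6.26e-05), while quantile normalization gave -0.19 and total scaling -0.14, both past the test. SHMT2 was thus negative under every library scaling tried and positive only after the arm median was subtracted. Library scaling changed whether its fall passed the test. For the other 9 genes the sign was the same with and without the subtraction of the arm median. CBS lies on 21q, with an arm median of 0.27, and its 40 neighbours had a median of 0.47. For the remaining rises, the neighbours' medians ran from -0.02 (MTHFD2) to 0.30 (PSAT1), each below the value of the gene itself.

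**Figure D2:**
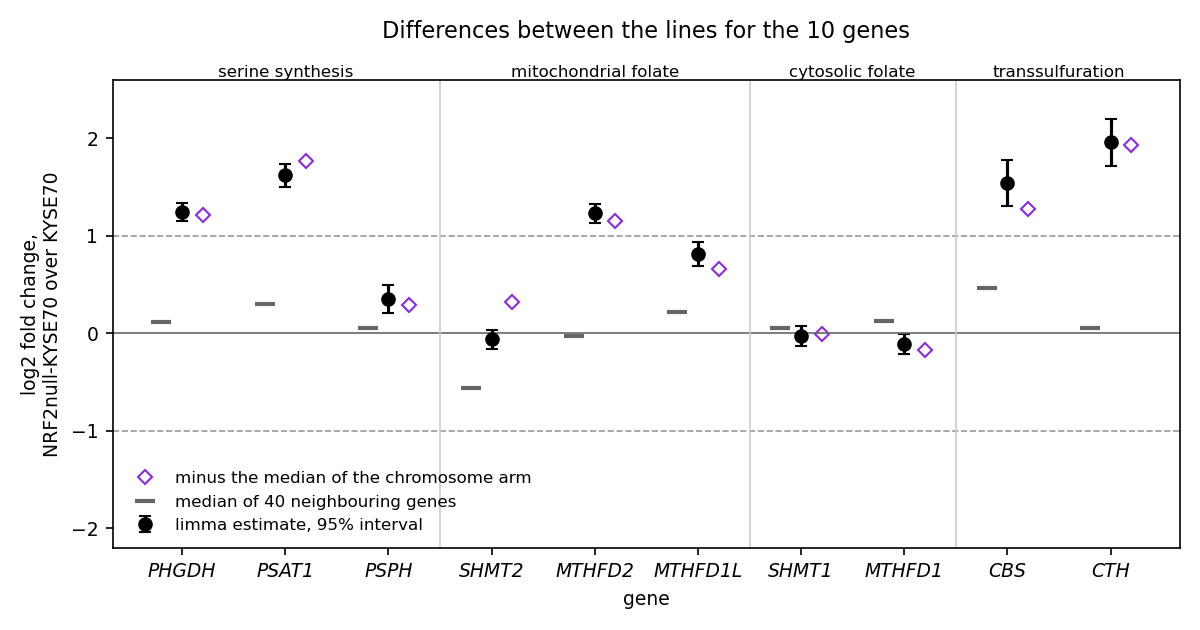
Log2 fold change (vertical axis, NRF2null-KYSE70 over KYSE70) of the 10 genes with 95% limma intervals (black), the value minus the median of the chromosome arm (open diamonds) and the median of 40 neighbouring genes (grey bars); dashed lines mark an absolute value of 1. The intervals of PHGDH, PSAT1, MTHFD2, CBS and CTH lie wholly above 1, and for SHMT2 the diamond lies at 0.32 while the estimate is -0.06.

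The cytosolic counterparts differed little between the lines. SHMT1 (ENSG00000176974; chromosome 17, 18327860 to 18363563) had 5793, 5880 and 5648 normalized counts in KYSE70 and 5822, 5628 and 5531 in NRF2null-KYSE70. The lines overlapped (log2 fold change -0.03, 95% interval -0.13 to 0.07, limma adjusted p = 0.625). MTHFD1 (ENSG00000100714; chromosome 14, 64388031 to 64463457), which carries 3 activities of the cytosolic cycle in 1 protein, had 25003, 24614 and 23904 normalized counts in KYSE70 and 23513, 22887 and 21713 in NRF2null-KYSE70. The lines did not overlap, with KYSE70 higher, but the difference did not pass the test (log2 fold change -0.11, 95% interval -0.21 to -0.01, limma adjusted p = 0.0574). It passed as a fall under quantile normalization (-0.26), TMM scaling (-0.12), total scaling (-0.19) and arm-centring (-0.17) and without NRF2null-KYSE70 library 1 (-0.14).

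Ratios within a library, in which a single factor per library cancels, set the compartments side by side. Per kilobase of canonical transcript, MTHFD2 stood at 0.594, 0.604 and 0.642 times MTHFD1 in KYSE70 and at 1.46, 1.58 and 1.62 times in NRF2null-KYSE70, without overlap (exact permutation p = 0.1, two-sided, the smallest possible). Which of the pair was higher depended on the length used: with merged exon length, MTHFD2 was above MTHFD1 in both lines, at 1811 to 1871 against 1377 to 1440 normalized counts per kilobase in KYSE70 and 4190 to 4414 against 1251 to 1355 in NRF2null-KYSE70. The log2 ratio of MTHFD1L to MTHFD1 was higher by 0.92 in NRF2null-KYSE70, also without overlap (exact permutation p = 0.1). The log2 ratio of SHMT2 to SHMT1 differed by -0.03, with the lines overlapping (exact permutation p = 0.6). SHMT2 was between 3.70 and 4.23 times as abundant as SHMT1 per kilobase of canonical transcript in the 6 libraries. The SHMT2 to SHMT1 difference became 0.0074 without KYSE70 library 3 and 0.0056 without NRF2null-KYSE70 library 1. Across the 5 ratios computed, none could reach an exact p below 0.1, before or after adjustment.

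**Figure D3:**
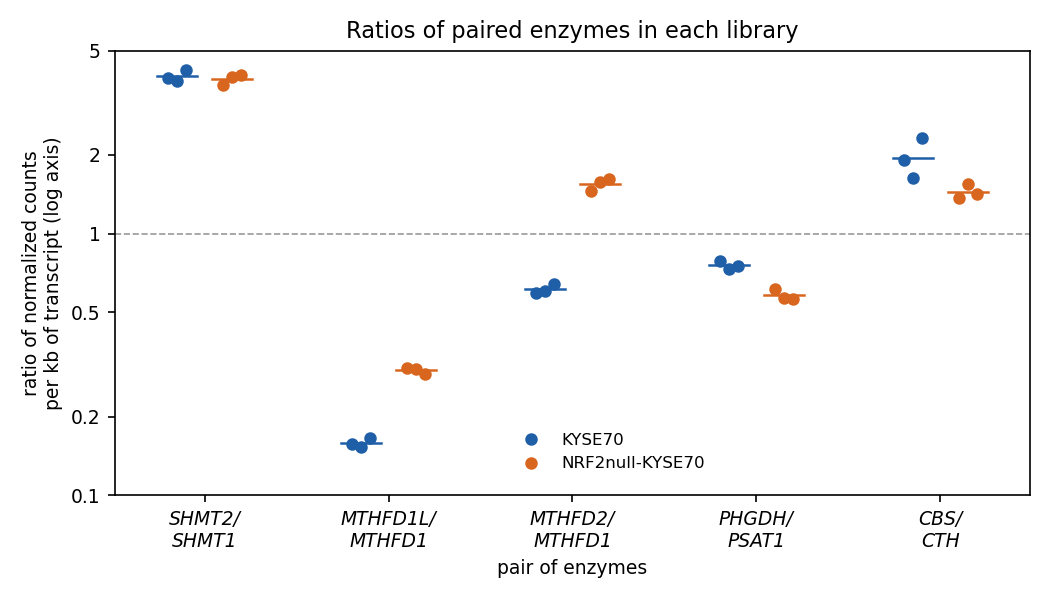
Ratio of normalized counts per kilobase of canonical transcript (vertical log axis) for 5 pairs of enzymes in each KYSE70 (blue) and NRF2null-KYSE70 (orange) library; short lines are means and the dashed line marks equal levels. The MTHFD2 to MTHFD1 ratio runs from 0.594 to 0.642 in KYSE70 and from 1.46 to 1.62 in NRF2null-KYSE70, and the SHMT2 to SHMT1 ratio from 3.70 to 4.23 over both. Positions relative to the dashed line depend on the transcript length used.

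The transsulfuration genes had the lowest levels of the 10 and some of the largest differences. CTH (ENSG00000116761; chromosome 1, 70411218 to 70439851), which cleaves cystathionine to cysteine, had 167, 168 and 161 normalized counts in KYSE70 and 678, 602 and 661 in NRF2null-KYSE70. The mean rose 3.91-fold without overlap, the largest fold of the 10 genes (log2 fold change 1.96, SE 0.113, limma adjusted p = 1.59e-08). CBS (ENSG00000160200; chromosome 21, 43053191 to 43076943), which forms cystathionine, had 382, 327 and 446 normalized counts in KYSE70 and 1112, 1113 and 1114 in NRF2null-KYSE70. It rose 2.89-fold (log2 fold change 1.54, SE 0.109, limma adjusted p = 1.04e-07) and was 1.27 after arm-centring. The genome build holds a near-identical copy of CBS, CBSL, which had 5 reads in the 6 libraries together. How reads matching both copies were treated is not given in the sources used here, so the level of CBS may be understated in both lines. The log2 ratio of CBS to CTH differed by -0.42 between NRF2null-KYSE70 and KYSE70, without overlap (exact permutation p = 0.1, two-sided). Per kilobase of canonical transcript, CBS and CTH had 154 ± 23.8 and 79.2 ± 1.71 normalized counts in KYSE70 and 446 ± 0.509 and 310 ± 19 in NRF2null-KYSE70 (n = 3 for each SD), below all other members in both lines. Between SHMT1 and MTHFD1L, the next lowest on this scale, levels overlapped in NRF2null-KYSE70 only. With merged exon length, CTH stood above CBS in both lines, with means of 68.5 against 56.7 in KYSE70 and 268 against 164 in NRF2null-KYSE70.

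Apart from PSPHP1, the pseudogenes and copies of the members held at most 24 reads each over the 6 libraries. Genes on the other strand share exon sequence with SHMT2, MTHFD2, SHMT1 and MTHFD1, over at most 11.6% of the merged exons of the member, and strand use in the counting was not stated. The most abundant of these partners, SMCR8, which shares 197 bases with SHMT1, had 2638 to 3134 normalized counts, with the lines overlapping. ZBTB25 and a non-coding RNA, which share 178 and 1556 bases with MTHFD1, were higher in NRF2null-KYSE70 without overlap. ZBTB25 had 1250 to 1407 normalized counts in KYSE70 and 1590 to 1677 in NRF2null-KYSE70. NDUFA4L2, which shares 33 bases with SHMT2, was lower without overlap. The part of these partners in the member counts was not tested.

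The rest of the pathway was read from 3 further lists, beside which stand the 57.6% of all tested genes with an adjusted p under 0.05 (29.3% higher, 28.3% lower) and the 14.7% past both thresholds. Of 15 genes of the folate cycle and folate transport, all tested, 5 were higher and 4 lower at a limma adjusted p under 0.05, with a median log2 fold change of 0.15. Past both thresholds were 2 genes (13.3%), both higher, a share near that of all genes. ALDH1L1, which oxidizes formyltetrahydrofolate to carbon dioxide in the cytosol, had 2106, 2211 and 2205 normalized counts in KYSE70 and 5537, 5532 and 5714 in NRF2null-KYSE70 (log2 fold change 1.36, limma adjusted p = 2.85e-10). Its value was 1.08 relative to its arm, 3q, and its 40 neighbours had a median of 0.48. GGH, which trims the glutamate tail of folates, rose 2.03-fold (log2 fold change 1.02, limma adjusted p = 8.46e-08), a value that fell below 1 when 1 of 3 libraries was left out (KYSE70 library 1 or 2 or NRF2null-KYSE70 library 3), and was 0.76 after arm-centring, 0.99 under quantile normalization and 0.95 under total scaling. The lower genes included TYMS and FPGS, named after their values were seen. TYMS makes thymidylate, a point where a one-carbon unit enters DNA synthesis. It averaged 162863 ± 4014 normalized counts (SD, n = 3) in KYSE70 and 127725 ± 7697 in its derivative (log2 fold change -0.35, limma adjusted p = 0.000156).

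For serine and glycine use and transport, 13 of 15 genes were tested, and 7 were higher and 1 lower at a limma adjusted p under 0.05 (median log2 fold change 0.19). Past both thresholds were 2 of them (15.4%), where 14.7% of all tested genes were. SLC6A9, a glycine transporter, rose from 1149, 1022 and 1128 normalized counts to 2768, 2351 and 2323 (log2 fold change 1.17, limma adjusted p = 7.6e-08). GLDC, the decarboxylase of the glycine cleavage system, was at the floor of detection in KYSE70, with 3 reads over its 3 libraries against 70 reads in NRF2null-KYSE70. It was at least 8.56-fold higher in NRF2null-KYSE70, taking 3 reads in each KYSE70 library as the floor, a bound that covers counting error only. Of the methionine cycle, 11 of 14 genes were tested, 4 were higher and 2 lower at an adjusted p under 0.05 (57.6% of all tested genes passed in either direction), and none passed both thresholds under limma, DESeq2 or edgeR. The lower genes, named after their values were seen, were MTR, the methionine synthase (log2 fold change -0.40, limma adjusted p = 0.00027), and MAT1A.

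ATF4 and its known targets formed another list, none of them a member. Of 24 genes tested, 21 were higher and 2 lower at a limma adjusted p under 0.05, beside 29.3% and 28.3% of all tested genes. With the fold limit, 7 (29.2%) were called, all higher, beside 14.7% of all tested genes, 7.23% as higher. The median log2 fold change was 0.77. ATF4 itself had 27548, 27768 and 28023 normalized counts in KYSE70 and 40901, 43184 and 42714 in NRF2null-KYSE70, a 1.52-fold rise (log2 fold change 0.61, SE 0.044, limma adjusted p = 1.22e-07). ASNS, which makes asparagine, rose most among the called targets, from 82.7, 78.0 and 114 normalized counts to 311, 359 and 331 (log2 fold change 1.87, limma adjusted p = 1.41e-06). CHAC1, which degrades glutathione, rose 3.09-fold, and the aminoacyl-tRNA synthetase genes CARS, GARS and AARS rose 2.91-fold, 2.44-fold and 2.28-fold, with limma adjusted p-values from 3.91e-11 to 5.13e-10. The transporter SLC7A5 and the stress factor DDIT3 had log2 fold changes of 1.02 and 1.00, at the edge of the fold limit. With total scaling they were 0.95 and 0.93, which left 5 called genes.

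The list did not move as 1 block. SLC7A11, the cystine transporter and also a known NRF2 target, was lower, at 10187 ± 840 normalized counts against 14267 ± 939 in the parental line (SD, n = 3; log2 fold change -0.49, limma adjusted p = 3.33e-05). NARS, the asparaginyl-tRNA synthetase, had a log2 fold change of -0.54 (limma adjusted p = 8.09e-07). Its 40 neighbours had a median of -0.53, but its arm, 18q, had a median of 0.03, and NARS was -0.56 after arm-centring. TRIB3, a feedback inhibitor of the response, did not pass the test, with a log2 fold change of 0.01. It lies on 20p, with an arm median of -0.77. After arm-centring TRIB3 was 0.78 and passed the test as a rise (limma adjusted p = 3.16e-08). TRIB3 therefore stood apart from the rising targets only without the subtraction of the arm median. SLC7A11, NARS and TRIB3 were named after their values were seen.

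**Figure D4:**
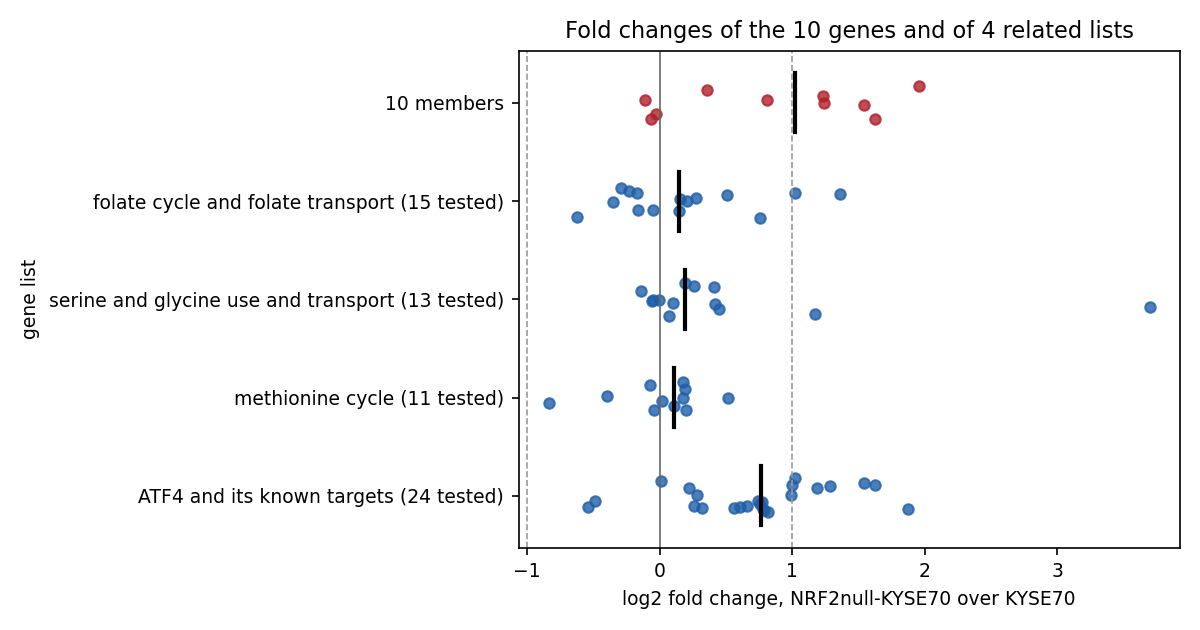
Log2 fold changes (horizontal axis, NRF2null-KYSE70 over KYSE70) of the 10 members (red) and of the tested genes of 4 related lists (blue), each point a gene, with the median as a black line and dashed lines at an absolute value of 1; vertical scatter within a list carries no value. The members and the ATF4 list have medians of 1.02 and 0.77, the other lists between 0.11 and 0.19. The GLDC point at 3.70 is a fitted value against a line at the floor of detection.

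Promoters were searched for the core of the ATF4 response element, written TGATGNAA, and for the core of the antioxidant response element bound by NRF2, written TGACNNNGC, on both strands from 250 bases before to 50 after each RefSeq start (GRCh38.p14). RefSeq promoter entries were found for 8 of the 10 members and not for PSPH and SHMT2. TGATGNAA occurred in 3.62% of all 35116 promoters and in at least 1 promoter of 4.46% of 27305 genes. It was found in 1 of the 8 members, MTHFD1L, and in 9 of the 24 genes of the ATF4 list with an entry, 5 of them among its 7 called genes. The matches of the member and of those 5 genes are shown, each with 10 flanking bases on either side, read 5′ to 3′ on the strand that carries the motif, which is in capitals.
MTHFD1L, chr6:150866347-150866374, plus strand: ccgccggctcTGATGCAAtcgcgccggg
ASNS, chr7:97872459-97872486, minus strand: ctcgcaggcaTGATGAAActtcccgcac
GARS, chr7:30594835-30594862, minus strand: gctcggagcaTGATGAAAtcgccgcgta
CHAC1, chr15:40953252-40953279, minus strand: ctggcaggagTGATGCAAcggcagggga
CARS, chr11:3057408-3057435, plus strand: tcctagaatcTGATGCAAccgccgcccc
AARS, chr16:70289676-70289703, plus strand: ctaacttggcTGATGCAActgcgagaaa
The MTHFD1L match begins 129 and 90 bases before 2 of its 4 listed starts and 24 bases after another. TGACNNNGC occurred in 13.3% of all promoters and in 16.1% of genes. It was found in 2 of the 8 members, MTHFD2 and CBS, and in 9 of the 24 genes of the ATF4 list, among them the called genes GARS and SLC7A5.
MTHFD2, chr2:74198611-74198639, minus strand: accgcgccggTGACTGCGCcgggagggaa
CBS, chr21:43076442-43076470, plus strand: gcgccccgcgTGACCGCGCccagagccgg
A match is a description of letters in this window and not of binding, and the other members with an entry may carry either motif elsewhere.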

How the data were processed

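Total RNA of KYSE70 and NRF2null-KYSE70 was sequenced with 3 libraries per line. Per the study's methods and the submitters' processing notes, the authors used FastQC 0.11.5 and cutadapt 1.12, aligned reads with STAR 2.6.90c to hg38, counted them per gene with featureCounts 1.5.1 and normalized them with DESeq2. The deposited values are a signal in normalized counts, that is reads divided by 1 size factor per library. Every value above 0 came out as a whole number of reads within 0.01 (100% in each library), so reads were recovered, between 52072801 and 63975313 per library. Columns name the line only, and libraries are numbered in column order.

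Log2(normalized count + 1) values were fitted with limma 3.58.1 (lmFit, eBayes with trend, R 4.3.3) over the 15994 genes with a mean of at least 10, with the line as the only term. P-values were two-sided and adjusted by Benjamini-Hochberg over all tested genes, and a call needed an adjusted p under 0.05 with a log2 fold change of 1 or more in size, as the study's own cut-offs were set. Fold changes in the text are ratios of mean normalized counts, and log2 fold changes understate low genes. Ratios were tested with exact permutation tests over libraries. A line with 3 reads or fewer in each library was taken as at the floor. Positions and transcript lengths came from GENCODE v44 (hg38), which held 58472 of the identifiers. All 69 list symbols had a value. Some results are not reported here.

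The genes named are the 10 members, NFE2L2, ATF4, up to 8 genes per list past both thresholds, and copies of members, and any others are said to have been named after their values were seen. The members and lists were chosen with earlier results of these data known. Alternatives were other pseudocounts, filters, scalings and limma settings, DESeq2 1.42.0 (2341 genes called) and edgeR 4.0.16 (2350 called, against 2344 with limma) on recovered reads, the omission of each library, arm-centring (subtraction of the median of the chromosome arm) and the sum of CBS and CBSL. The neighbouring genes and the merged exon length were chosen after seeing the data. The fits were tested on simulated data.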

Additional observations from a re-analysis of the deposited data

How the results depend on the processing

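The 5 members past both thresholds stayed 5 under every alternative scaling, filter, pseudocount, limma setting and left-out library and with DESeq2 and edgeR. Under the same alternatives, the members with an adjusted p under 0.05 numbered 7 to 9, MTHFD1 and SHMT2 being the additions, as falls. Arm-centring was not part of these counts. Under it MTHFD1 passed as a fall and SHMT2 as a rise (limma adjusted p = 0.00839 and 6.26e-05). With no fold limit, the calls were 9206 for all genes, 9 for the folate list, 8 for serine and glycine, 6 for the methionine cycle and 23 for ATF4. A filter at a mean of 50 called 1511 genes, and 1 of serine and glycine, since fewer genes were tested. The folate list had 1 call under quantile or total scaling, where GGH was below the fold limit, and 1 to 2 when a library was left out (1 without KYSE70 library 1 or 2 or NRF2null-KYSE70 library 3). The ATF4 list had 5 calls under total scaling and 6 to 7 when a library was left out, DDIT3 and SLC7A5 falling below the fold limit. DDIT3 was past both thresholds in 11 of 18 alternatives and SLC7A5 in 15 of 18. Without KYSE70 library 1 or 2 or NRF2null-KYSE70 library 3, the count stayed at 7 although DDIT3 was below the limit. The called genes were therefore not the same ones throughout. The serine and glycine list also had 1 to 2 (1 without NRF2null-KYSE70 library 3). The log2 ratio of SHMT2 to SHMT1 ranged from -0.063 to 0.0074 when a library was left out, and SHMT2 was 0.32 after arm-centring. Over 23 named genes, 405 of 413 values kept direction and side of the test, 7 passed it newly and 1 reversed. Where a cause is not given, the cause was not tested. No paired analysis was possible because the columns carry no replicate numbers. A lone clone and 3 libraries per line limit what the p-values cover. Genes near the floor, such as GLDC, rest on few reads.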
